A study of Mus musculus with 6 samples.

Results

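Hox genes encode transcription factors with a homeodomain, the DNA-binding fold that the homeobox encodes. In mammals they stand in 4 clusters, HoxA, HoxB, HoxC and HoxD, and genes of like position in different clusters form numbered paralog groups. Low-numbered genes lie at the 3′ end of a cluster and are used towards the head, and high-numbered ones at the 5′ end and towards the tail. Connective-tissue cells of the adult body keep much of the Hox pattern of the place they came from, and fat depots differ in it. The Hox genes of stromal cells from mouse visceral fat were taken as all rows of the count table whose symbol is Hox followed by a cluster letter and a paralog number, which gave 39 of 55011 rows. HoxA held 11 of them, HoxB 10, HoxC 9 and HoxD 9.

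The cells were cultured mesenchymal stromal cells of visceral fat, which the design text names eWAT, and carry the label Il33-EGFP-, meaning that they lacked EGFP from the Il33 reporter. For 3 days they received either irisin/HSP90α at 10 nM, hereafter irisin (n = 3), or PBS, a saline buffer (n = 3). The sample titles name irisin alone. Irisin is a hormone cut from the muscle membrane protein Fndc5, and HSP90α is a chaperone also found outside cells. The labels do not say whether PBS wells held HSP90α, nor the age, sex or strain of the mice. They also leave the origin of the replicates unstated, so the spread behind each p-value may be technical.

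Libraries held between 5271309 and 6745799 counts. On the second principal component (23.9% of variance) PBS replicate 3 and irisin replicate 1 lay apart from the other 4 libraries, so results that turn on them are also given without 1 or both. All 10 fat stromal markers were detected, with a summed level between 43706 and 47815 CPM in irisin and between 32178 and 38633 CPM in PBS. Col1a1 and Col3a1 made up most of that sum. Pdgfra and Col1a1 rose, Dpt, Lum, Cd34 and Thy1 fell, and the median LFC (log2 fold change) of the 10 was -0.10. Without irisin replicate 2 or 3 the rise of Col1a1 no longer passed the test given below. CPM is a gene's count per 1000000 counts of its library, with the library size scaled by edgeR's TMM factors. Epithelial markers summed to at most 2.72 CPM in irisin and 1.27 CPM in PBS, and leukocyte markers to at most 5.34 CPM in irisin and 7.26 CPM in PBS. The 8 mesothelial markers summed to 0.58 to 12.8 CPM in irisin and 1.16 to 6.34 CPM in PBS, with Upk1b at 0 in every library. Endothelial markers summed to 18.4 to 26.2 CPM in irisin and 31.1 to 37.7 CPM in PBS, nearly all of it Tek, which fell. The fall of Tek did not pass without PBS replicate 1 or 2, without irisin replicate 2 or 3, or with replicate number in the fit. Schwann cell markers summed to at most 4.06 CPM in irisin and 2.21 CPM in PBS. Of the 5 pericyte and smooth muscle markers, 4 were tested and Cspg4 fell, and their sum was 1768 to 2027 CPM in irisin and 2122 to 2384 CPM in PBS. Mature adipocyte markers summed to 47.8 to 54.9 CPM in irisin and 193 to 299 CPM in PBS. In such bulk samples fewer cells of a type and less RNA per cell cannot be told apart, and the part of these cells in the Hox levels was not tested.

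In the PBS libraries, Hox transcripts were few and came mostly from the middle of the clusters. Of the 39 genes, 18 averaged at least 1 CPM in PBS, 21 had a count in all 6 libraries, 12 in some of them, and 6 had none. The highest count of any member in any library was 122, for Hoxa7 in irisin replicate 1. All members together made up 121, 123 and 128 CPM in irisin replicates 1, 2 and 3, and 123, 125 and 105 CPM in PBS replicates 1, 2 and 3. To compare genes of different length, levels were divided by the union of each gene's annotated exons, in kilobases. Paralog groups 5 to 9, with 15 members of which 11 reached 1 CPM in PBS, held 76.1% ± 3.14 of the summed level per kilobase in irisin and 75.7% ± 3.5 in PBS (SD, n = 3 each). That range has no sharp lower edge. Group 4, outside it, summed to 4.28 ± 0.755 CPM per kilobase in irisin and 4.4 ± 0.071 in PBS. Group 9, inside it, summed to 5.05 ± 0.674 in irisin and 4.53 ± 1.62 in PBS. On the scale per kilobase HoxC gave the largest share of the 4 clusters, 39.1% ± 2.68 in irisin and 45% ± 1.91 in PBS. HoxD gave the smallest, 4.08% ± 1.10 in irisin and 3.58% ± 1.22 in PBS. Paralog group 7, which has only Hoxa7 and Hoxb7, had the highest sum of any group, 13.7 ± 2.13 CPM per kilobase in irisin and 11.9 ± 0.936 in PBS. Among the 12160 tested genes with a length, the median level in PBS was 5.23 CPM per kilobase. Of the 17 Hox genes tested, 3 lay above that median and their own median was 1.70.

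**Figure D1:**
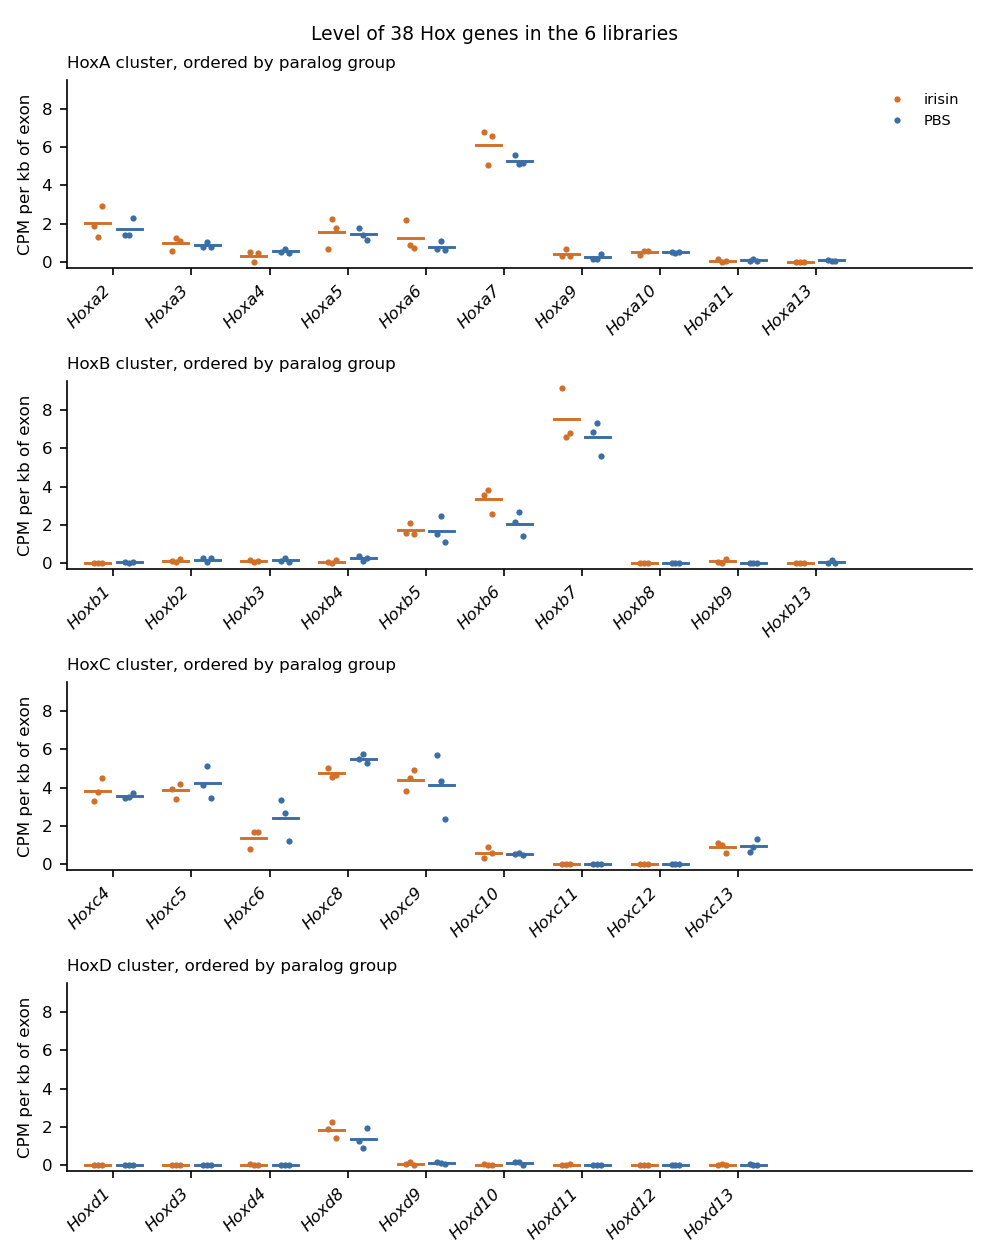
Level of 38 Hox genes in CPM per kilobase of exon (vertical axis) in the 3 irisin (orange) and 3 PBS (blue) libraries, with 1 panel per cluster and genes in order of paralog group. Points are libraries and lines are group means; Hoxa7, Hoxb7 and Hoxc8 stand highest, and HoxD shows only Hoxd8 above 1.

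The HoxA cluster lies on chromosome 6 of the mouse assembly GRCm38, on the minus strand. Hoxa7, a trunk gene of the cluster's middle, had counts of 110, 93 and 81 in PBS, or 5.29 ± 0.231 CPM per kilobase, and the other 10 members stood below its range. Hoxa2, which patterns the hindbrain and its neural crest in the embryo, was at 1.70 ± 0.504 CPM per kilobase. Hoxa5, which mouse lung development requires, was at 1.46 ± 0.302, and the ranges of Hoxa2 and Hoxa5 overlapped. Hoxa3, Hoxa6, Hoxa4 and Hoxa10 ran from 0.874 ± 0.156 down to 0.508 ± 0.024 CPM per kilobase, each overlapping the next in the order. Hoxa9, a gene known from blood stem cells, was at 0.249 ± 0.127 beside Hoxa7, the highest of the cluster, and at 0.431 per kilobase of its longest transcript. At the 5′ end, Hoxa11 and Hoxa13, genes of the limb and the urogenital tract, had 1 or 2 counts in each PBS library. The place of Hoxa3 also depends on the length used, since its exon union of 6014 bases is far longer than its longest transcript of 2591 bases. Per kilobase of that transcript Hoxa3 was at 2.03 CPM, above Hoxa2.

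HoxB runs along the plus strand of chromosome 11 from 96194316 to 96368256. Its signal came from 3 adjacent genes, and Hoxb7, which is active in the developing kidney's collecting ducts, led with counts of 73, 71 and 47 in PBS (6.58 ± 0.875 CPM per kilobase). Hoxb6 and Hoxb5 were at 2.07 ± 0.631 and 1.69 ± 0.680 CPM per kilobase, with overlapping ranges. Hoxb8, which begins 4718 bases upstream of the start of Hoxb7, had 0 counts in all 6 libraries, and 0 counts over 3 libraries allow up to 0.169 CPM in irisin and 0.161 CPM in PBS. Such limits, like the intervals below, cover counting error only. Hoxb9 had 1, 0 and 4 counts in irisin and none in PBS. On the 3′ side, Hoxb4, Hoxb2, Hoxb3 and Hoxb1 had at most 7 counts in any library, with levels of 0.269 CPM per kilobase or less in PBS.

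In HoxC, on the plus strand of chromosome 15 from 102921103 to 103036852, 5 genes had means above 2 CPM per kilobase. Hoxc8, which specifies thoracic identity and on which miR-196a acts in mouse fat progenitors, had counts of 107, 103 and 81 in PBS (5.50 ± 0.249 CPM per kilobase). Hoxc5, Hoxc9 and Hoxc4 followed at 4.24 ± 0.841, 4.13 ± 1.68 and 3.56 ± 0.146 CPM per kilobase, with ranges that overlapped from each to the next, and that of Hoxc9 also reached into the range of Hoxc8. Hoxc6, another thoracic gene, was at 2.43 ± 1.10, or 3.7 per kilobase of its longest transcript, and its range overlapped that of Hoxc13. Hoxc10, which represses browning of subcutaneous fat in mice, was at 0.532 ± 0.0494 CPM per kilobase, on 5 to 7 counts in each PBS library. Hoxc11 and Hoxc12 had no count in any library. Beyond them Hoxc13, which drives hair keratin genes in the follicle, had counts of 11, 14 and 18 in PBS (0.966 ± 0.353 CPM per kilobase) and 17, 13 and 9 in irisin. The other 8 members of paralog groups 11 to 13 had at most 2 counts in any library.

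HoxD lies on the plus strand of chromosome 2 from 74668310 to 74765142, and Hoxd8, a trunk gene, was its one member above 1 CPM. Hoxd8 had counts of 24, 16 and 29 in PBS, or 1.38 ± 0.520 CPM per kilobase. Hoxd9 followed with counts of 3, 2 and 1 (0.146 ± 0.0589 CPM per kilobase). Hoxd1, Hoxd3 and Hoxd12 had no count in any library, and Hoxd4, Hoxd10, Hoxd11 and Hoxd13 had at most 2. Hoxd3 and Hoxd4 overlap in the annotation and begin almost together, at 74711927 and 74711929, next after Hoxd8. Levels thus dropped on both sides of Hoxd8, to Hoxd9 on one and to these overlapping genes on the other. Hoxd3 and Hoxd4 share 388 exon bases with one another and 2225 and 1154 with Gm28230, which also had no counts, and how reads of shared exons were counted is not known. The antisense gene Hoxd3os1, whose exons overlap both by 347 bases, had 5, 5 and 8 counts in irisin and 12, 7 and 1 in PBS.

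The sequences just upstream of RefSeq start sites are shown for some high genes and some without counts. Hoxa7 and Hoxb8 come from different clusters and are not the sides of one step, since no start site was found for Hoxb7. RefSeq start sites of GRCm38.p6 were found for 22 of the 39 genes, some with several starts, giving 24 windows of 250 bases. Some of these starts lie inside the annotated gene. That of Hoxa7 does, since the gene runs from 52214491 to 52221854 on the minus strand. Which starts these cells used was not tested. Each line runs 5′ to 3′ on the gene's own strand and ends at the base before the start, and capitals mark every C followed by G. Hoxd8 (chr2:74704365-74704614, plus strand) and Hoxa7 (chr6:52218574-52218823, minus strand) are the highest genes of their clusters, and Hoxd3 (chr2:74711743-74711992, plus strand) and Hoxb8 (chr11:96281655-96281904, plus strand) had no counts.
Hoxd8: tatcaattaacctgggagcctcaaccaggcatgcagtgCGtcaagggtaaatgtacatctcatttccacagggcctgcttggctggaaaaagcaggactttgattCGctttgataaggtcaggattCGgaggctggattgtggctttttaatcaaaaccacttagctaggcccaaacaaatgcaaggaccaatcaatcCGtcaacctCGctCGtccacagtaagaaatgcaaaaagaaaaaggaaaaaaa
Hoxd3: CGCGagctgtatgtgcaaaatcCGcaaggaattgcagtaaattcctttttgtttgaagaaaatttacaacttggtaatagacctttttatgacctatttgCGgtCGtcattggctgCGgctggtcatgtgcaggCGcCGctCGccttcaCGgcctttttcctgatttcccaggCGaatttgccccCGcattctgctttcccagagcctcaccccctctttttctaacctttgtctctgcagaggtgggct
Hoxa7: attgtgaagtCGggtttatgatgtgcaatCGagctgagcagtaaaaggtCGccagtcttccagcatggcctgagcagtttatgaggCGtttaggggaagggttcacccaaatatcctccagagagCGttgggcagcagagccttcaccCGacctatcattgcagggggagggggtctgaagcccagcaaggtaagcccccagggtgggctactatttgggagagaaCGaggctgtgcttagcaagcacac
Hoxb8: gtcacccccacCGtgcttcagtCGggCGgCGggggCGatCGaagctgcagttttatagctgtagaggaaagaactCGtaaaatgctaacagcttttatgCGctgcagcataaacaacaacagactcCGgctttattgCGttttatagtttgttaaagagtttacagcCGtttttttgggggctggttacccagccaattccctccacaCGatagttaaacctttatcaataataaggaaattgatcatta
CpG dinucleotides, at which CpG islands and Polycomb targets of the embryo are rich, numbered 6 in the Hoxd8 window and 7 in that of Hoxa7. They numbered 12 each in the Hoxd3 and Hoxb8 windows. Other genes went the other way on the scale per kilobase in PBS. The windows of Hoxa9 (0.249 CPM per kilobase) and Hoxd4 (0) held 3 each, and both lie inside the annotated gene. That of Hoxa5 (1.46) held 28 and that of Hoxa6 (0.795) held 24. In CPM, however, Hoxa9 (1.39 in PBS) stood above Hoxa6 (0.695 in PBS). The 24 Hox windows held between 2 and 35, with a median of 13, against a median of 6 over 32851 windows of the same length. The letters TGATNNAT, a form of the site that Hox and Pbx proteins bind together, were searched on both strands. They occurred in 4 of the 24 Hox windows (16.7%), among them that of Hoxb8, and in 7.68% of all windows.

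Reads of Hox genes can be hard to place because homeoboxes are alike, and the stretches most at risk can be read off the GENCODE M21 coding sequences. Over the 741 pairs of the 39 genes, the longest identical stretch had a median of 14 bases and a maximum of 52, and 5 pairs shared at least 40. Hoxb6 (exon 3, chr11:96300830-96300866, plus strand) and Hoxb7 (exon 2, chr11:96289526-96289562, plus strand) share 37 bases.
Hoxb6 and Hoxb7: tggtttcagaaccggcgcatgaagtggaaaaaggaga
The rule for reads that fit several genes is not given in the sources used here, so counts of Hox genes are uncertain to the extent of such stretches. Exons of 16 members overlap those of another annotated gene. Hoxa3 shares 1529 of its 6014 exon bases with genes on the opposite strand, and Hoxb3 shares 2250 of 4251 with Hoxb3os. Hoxa7, the highest gene of HoxA, shares 586 of 2876 with Hoxaas3 on the opposite strand. Hoxc5 and Hoxc10 share 166 bases on the same strand. Whether counting used strand is not stated.

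With irisin, no Hox gene passed the test. Of the 17 members that had enough counts to be tested (7 of HoxA, 3 of HoxB, 6 of HoxC and 1 of HoxD), edgeR's quasi-likelihood test called 0 at a Benjamini-Hochberg adjusted p of 0.05, against 7.42% of all 12296 genes tested. None was called higher, against 4.2% of all genes tested, and none lower, against 3.22%. Among tested genes whose mean level was no higher than that of the highest Hox gene, 5.09% were called. DESeq2 and limma-voom also called 0. At an unadjusted p of 0.05 the members past it numbered 1 with edgeR, 0 with DESeq2 and 2 with limma-voom. With edgeR that is 5.88% of the 17, against 18.2% of all genes tested. The smallest adjusted p of the 17 was 0.239. Log2 fold changes ran from -0.83 to 0.81 with a median of 0.11, against -0.01 over all genes tested, with 13 above 0 and 4 below, where 48.7% of all genes tested lay above 0. For 10 of the 17 the sign turned under at least 1 alternative. The log2 fold changes (LFC) are irisin over PBS with standard errors, and adjusted p-values run over all genes tested. For 11 of the 17 the 95% interval lay within a 2-fold change either way, and for the other 6 it reached past it. The half-width of that interval ran from 0.33 to 1.01 on the log2 scale.

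**Figure D2:**
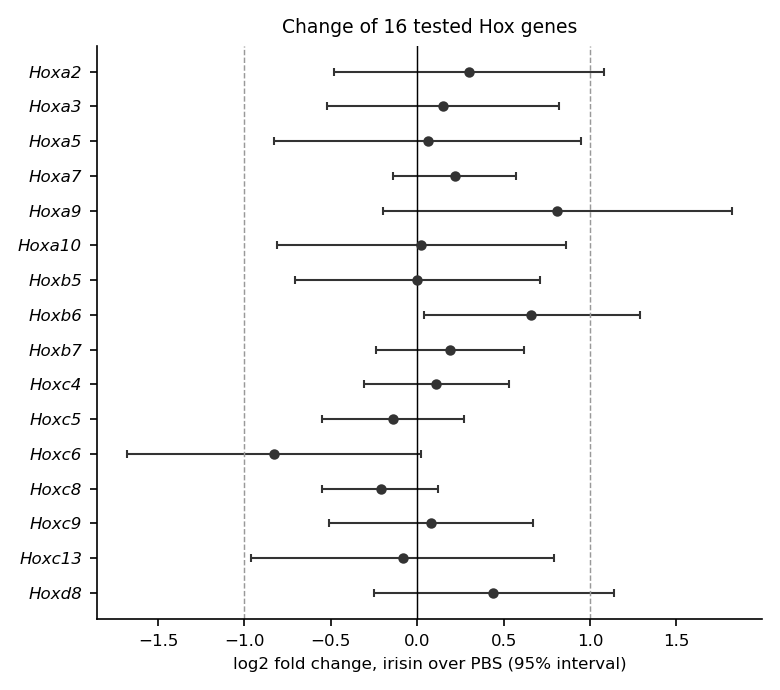
Log2 fold change of irisin over PBS (horizontal axis) for 16 of the 17 tested Hox genes, with 95% intervals as bars and dashed lines at a 2-fold change. The interval of Hoxb6 is the one that leaves out 0 before adjustment (0.04 to 1.29), and those of Hoxa7 and Hoxc8 are among the narrowest.

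The most abundant members gave the tightest values. Hoxa7 had 19.5, 14.5 and 18.9 CPM in irisin, against 16, 14.7 and 14.9 CPM in PBS. The groups overlapped, and LFC was 0.22 ± 0.16 (95% interval -0.14 to 0.57, adjusted p = 0.571). Hoxb7 had 14.1, 10.2 and 10.5 CPM in irisin, against 10.6, 11.3 and 8.65 CPM in PBS. These too overlapped, with LFC 0.19 ± 0.20 (-0.24 to 0.62, adjusted p = 0.712), and LFC was -0.07 without both PBS replicate 3 and irisin replicate 1 (adjusted p = 0.913). Hoxc8 had 14.2, 12.9 and 13.2 CPM in irisin, against 15.5, 16.3 and 14.9 CPM in PBS. All 3 irisin values of Hoxc8 lay below all 3 PBS values, by a small step (LFC -0.21 ± 0.15, -0.55 to 0.12, adjusted p = 0.555). Groups did not overlap in 2 of the 17 members, against 23.6% of all genes tested. Hoxc5 had 12.2, 10.6 and 12.9 CPM in irisin, against 12.8, 15.8 and 10.7 CPM in PBS, and the groups overlapped (LFC -0.14 ± 0.19, -0.55 to 0.27, adjusted p = 0.799).

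Hoxb6, a trunk gene next to Hoxb7, had the lowest p of the family. It had 7.04, 7.54 and 5.03 CPM in irisin, against 4.21, 5.23 and 2.76 CPM in PBS. Irisin replicate 3 lay below PBS replicate 2, so the groups overlapped (LFC 0.66 ± 0.29, 0.04 to 1.29, adjusted p = 0.239). Hoxb5os, the antisense gene beside Hoxb5, had 2.72, 3.67 and 3.14 CPM in irisin and 2.03, 1.90 and 2.03 CPM in PBS, and did not pass either (adjusted p = 0.307). Hoxd8 had 5.28, 6.18 and 3.93 CPM in irisin, against 3.48, 2.54 and 5.34 CPM in PBS. PBS replicate 3 lay among the irisin values of Hoxd8, and the groups overlapped (LFC 0.44 ± 0.32, -0.25 to 1.14, adjusted p = 0.549). Without PBS replicate 3 the LFC of Hoxd8 was 0.75 (adjusted p = 0.195), and without both libraries named above 0.72 (0.251). Hoxa2 had 3.36, 2.32 and 5.18 CPM in irisin, against 2.47, 2.54 and 4.05 CPM in PBS, and overlapped as well (LFC 0.30 ± 0.36, -0.48 to 1.08, adjusted p = 0.762). Hoxd9, with counts of 1, 2 and 0 in irisin and 3, 2 and 1 in PBS, was too low to test.

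Hoxc6, Hoxc9 and Hoxa9 are described because of their values. Hoxc6 had counts of 12, 21 and 26 in irisin (1.92, 4.06 and 4.09 CPM), against 56, 41 and 16 in PBS (8.13, 6.5 and 2.95 CPM). PBS replicate 3 lay inside the irisin range and the other PBS libraries lay above it. The fold change of Hoxc6 was the lowest of the family (LFC -0.83 ± 0.39, -1.68 to 0.02) and did not pass (adjusted p = 0.290). Without PBS replicate 3 it passed as lower with irisin (LFC -1.13, adjusted p = 0.0314), and without both PBS replicate 3 and irisin replicate 1 it did not (LFC -0.84, adjusted p = 0.0708). The range of its adjusted p over all alternatives was 0.0314 to 0.671. Hoxc9 had 9.28, 11 and 11.9 CPM in irisin, against 13.8, 10.6 and 5.71 CPM in PBS (LFC 0.08 ± 0.27, adjusted p = 0.935). PBS replicate 3 was the lowest library of the 6 for Hoxc9, with 31 counts (exact 95% Poisson interval 21.1 to 44.0) against 95 and 67 in PBS replicates 1 and 2. The sign for Hoxc9 turned without PBS replicate 3 (LFC -0.18, adjusted p = 0.698) and without both it and irisin replicate 1 (-0.09, 0.886), and LFC was 0.38 without PBS replicate 1 (0.599).

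As a description of the PBS libraries, the variance of a gene's counts over the 3 PBS libraries, divided by what counting alone gives, was 9.60 for Hoxc9 and 6.87 for Hoxc6, against 0.188 for Hoxc8 between them and 0.0908 for Hoxc4. In irisin it was 1.07 for Hoxc9 and 2.83 for Hoxc6. Hoxc9 and Hoxc6 were picked for their low PBS replicate 3, so these values restate that library's place. The median over the 17 tested members was 1.48 in irisin and 1.57 in PBS. PBS replicate 3 held the lowest of the 3 PBS values in 9 of the 17 (52.9%), against 40.3% of all genes tested, and irisin replicate 1 the lowest irisin value in 7 (41.2%), against 37.4%.

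Hoxa9 had 1.76, 3.67 and 1.89 CPM in irisin, against 1.02, 0.951 and 2.21 CPM in PBS, and its fold change was the highest of the family (LFC 0.81 ± 0.47, -0.20 to 1.82, adjusted p = 0.415). Groups overlapped for Hoxa9, since PBS replicate 3 lay above irisin replicates 1 and 3. Without PBS replicate 3 its LFC was 1.26 (adjusted p = 0.158), without irisin replicate 2 it was 0.42 (0.841), and without both PBS replicate 3 and irisin replicate 1 it was 1.45 (0.0865). Of the other tested members, Hoxa3, Hoxa5, Hoxa10, Hoxb5, Hoxc4 and Hoxc13 had LFC between -0.08 and 0.15 and adjusted p of at least 0.852.

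**Figure D3:**
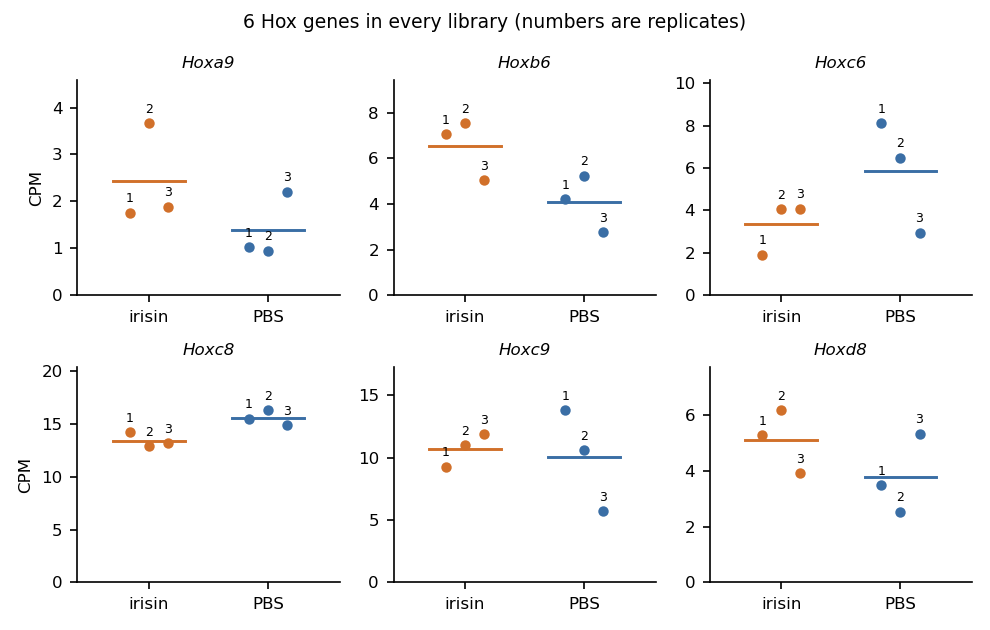
CPM (vertical axis, from 0) of 6 Hox genes in each irisin (orange) and PBS (blue) library, numbered by replicate, with lines at the group means. PBS replicate 3 is the lowest PBS library for Hoxc6 and Hoxc9 (2.95 and 5.71 CPM), and all irisin values of Hoxc8 lie below all PBS values.

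The 22 members below the test's count limit had at most 12 counts in any library, and 16 of them had any count. Hoxc10, the highest of these in PBS, had 0.64, 1.74 and 1.10 CPM in irisin, against 1.02, 1.11 and 0.921 CPM in PBS. Hoxa6 had 12, 4 and 4 counts in irisin and 4, 6 and 3 in PBS. Hoxa13 had no count in irisin and 2, 1 and 1 in PBS, and a difference of that size is not detectable at this depth. With no low-count filter 33 members could be fitted and none passed.

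Pbx and Meis proteins bind DNA together with Hox proteins. Of 12 genes listed as cofactors or related, such as Pbxip1, Gmnn and Hmx1, 10 were tested. Of the 10 tested, 0 passed, against 7.42% of all genes tested. Their median LFC was 0.02, against -0.01 over all genes tested. Meis1 had 79.7, 83.7 and 74.5 CPM in irisin, against 79.4, 71.5 and 80.3 CPM in PBS. At an unadjusted p, Gmnn, which encodes the replication inhibitor geminin that also binds Hox proteins, was at 0.0264 (15.5 ± 1.14 CPM in irisin and 20.9 ± 3.78 CPM in PBS, adjusted p = 0.187).

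Polycomb complexes keep Hox genes silent and Trithorax-type methyltransferases keep them active. In the Polycomb list 26 of 28 genes were tested, 1 rose and 1 fell (median LFC 0.02), against 4.2% higher and 3.22% lower among all genes tested, so the list's count lies near that background. Mtf2, a subunit that recruits Polycomb repressive complex 2 to CpG islands, rose to 28.3 ± 0.5 CPM in irisin, against 18.1 ± 2.95 CPM in PBS (LFC 0.65 ± 0.15, adjusted p = 0.0164). Jarid2, another accessory subunit of that complex, fell to 27.4 ± 2.90 CPM in irisin, against 40.3 ± 5.94 CPM in PBS (LFC -0.56 ± 0.14, adjusted p = 0.0285). Both calls were lost without PBS replicate 1 or 2 or without any 1 irisin replicate (adjusted p 0.0538 to 0.0915 for Mtf2 and 0.0624 to 0.154 for Jarid2), and that of Jarid2 also with the replicate block (0.0875). The catalytic subunits Ezh1 and Ezh2 did not pass (adjusted p = 0.834 and 0.435). None of the 14 Trithorax and H3K27 demethylase genes passed, against 7.42% of all genes tested (median LFC 0.02, 14 tested, 0 called by edgeR).

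Retinoic acid, a classical inducer of 3′ Hox genes, is made by Aldh1a enzymes, and in its list 10 of 18 genes were tested, 1 rose and 3 fell (median LFC -0.04), against 4.2% higher and 3.22% lower among all genes tested. Aldh1a2 had 959, 999.5 and 935 CPM in irisin, against 250, 298 and 228 CPM in PBS (LFC 1.90 ± 0.10, adjusted p = 1.28e-07). Aldh1a3 fell to 382 ± 6.58 CPM in irisin, against 1005 ± 118 CPM in PBS (LFC -1.40 ± 0.10, adjusted p = 9.06e-07), and Aldh1a1 to 242 ± 8.50 CPM, against 438 ± 41.6 CPM in PBS (LFC -0.85 ± 0.09, adjusted p = 3.68e-05). Rxra, a partner of the retinoic acid receptors, fell to 54.4 ± 4.36 CPM in irisin, against 70.9 ± 4.45 CPM in PBS (LFC -0.38 ± 0.11, adjusted p = 0.0486). That call was lost with DESeq2, without robust dispersion, at a count minimum of 50, with the replicate block and without any 1 library except PBS replicate 3 (adjusted p 0.0513 to 0.188). The falls in this list numbered 2 to 5 over the alternatives, with 2 in DESeq2, 4 in limma-voom and 5 without PBS replicate 3. The Cdx genes, which activate Hox genes in the embryo, had at most 1 count in any library.

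Other transcription factors of body position were tested in 15 of 34 cases, and 1 rose, against 4.2% of all genes tested, so that count too lies near the background. Prrx1, a homeobox gene of limb and connective-tissue mesenchyme, rose to 209 ± 12.3 CPM in irisin, against 152 ± 15.6 CPM in PBS (LFC 0.46 ± 0.10, adjusted p = 0.00928). Its call was lost without irisin replicate 2 (adjusted p = 0.0755). Wt1 and Tcf21, known from visceral fat stroma and its mesothelial lineage, did not pass, with 43.2 ± 6.52 and 90.5 ± 12.5 CPM in irisin, against 37.5 ± 3.02 and 85.1 ± 5.33 CPM in PBS. Tbx15 and Shox2, known from subcutaneous depots, had at most 2 counts in any library. Elsewhere in the list, Gata6 had 7.87 ± 2.24 CPM in irisin and 6.53 ± 0.935 CPM in PBS. Gata4 had at most 6 counts in any library and Bnc1 at most 1. Whether these factors mark a depot was not tested.

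Of 27 RNAs and neighbouring genes of the clusters that were listed, 26 were in the table and 8 were tested. Of these 0 passed, against 7.42% of all genes tested (median LFC 0.03). Hotair, which lies in HoxC, had no count in any library. The rows of the cluster microRNA genes Mir10a, Mir10b, Mir196a-2, Mir196b and Mir615 were also at 0, and Mir196a-1 had 1 count, in libraries of polyadenylated RNA that do not measure mature microRNAs. Hoxaas2, antisense in HoxA, had 6.40, 2.13 and 3.46 CPM in irisin, against 4.21, 2.69 and 2.21 CPM in PBS (LFC 0.39 ± 0.40, adjusted p = 0.706). Outside the clusters, Skap2 beside HoxA and Mtx2 beside HoxD had 88.7 and 67.4 CPM in irisin, against 87.1 and 70.9 CPM in PBS. Smug1 beside HoxC had 19 CPM in irisin and 17.8 CPM in PBS. Skap1 near HoxB had 0.158 CPM in irisin and 0.348 CPM in PBS, Ttll6 0.193 CPM in irisin and 0.145 CPM in PBS, and Evx1 and Evx2 had at most 1 count in any library.

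**Figure D4:**
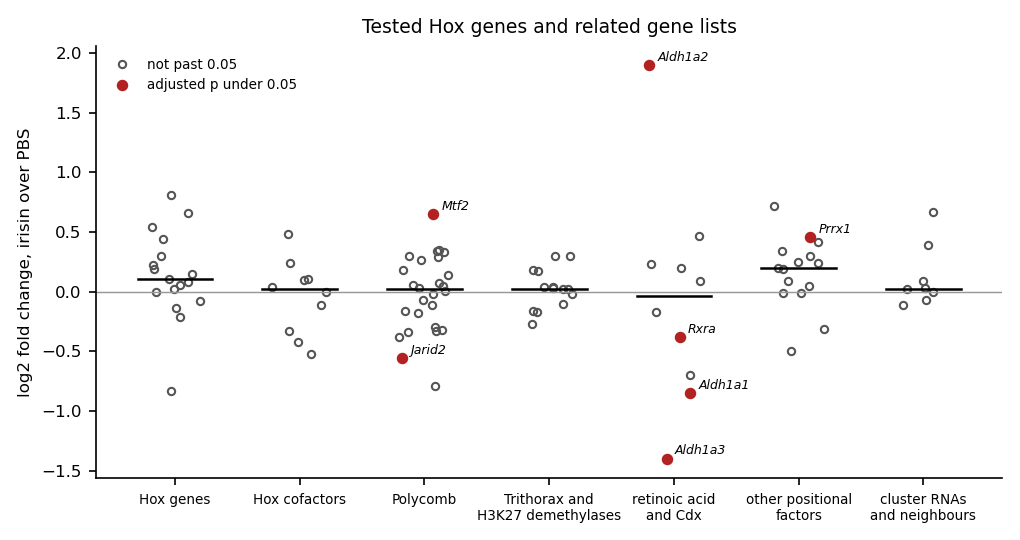
Log2 fold change of irisin over PBS (vertical axis) for the tested Hox genes and the tested members of 6 related lists; points are genes, filled where adjusted p was under 0.05, and lines are medians. No Hox gene is filled, and Aldh1a2 (1.90) and Aldh1a3 (-1.40) lie farthest from 0.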

How the data were processed

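Polyadenylated RNA of 6 libraries, 3 irisin and 3 PBS, was compared. Lysates of cells in plates were sequenced by the standard ImmGen protocol, per the labels' protocols. STAR 2.7.3a, featureCounts and mm10 are named in the submitters' processing notes, while the annotation, the strand setting and the rule for multi-mapping reads are unknown here. Deposited values are raw counts, 1 row per symbol, and sample titles gave the groups.

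Testing used edgeR 4.0.16 (R 4.3.3): TMM factors, filterByExpr (minimum count 10, which left 12296 genes) and the robust quasi-likelihood test, with p-values adjusted by Benjamini-Hochberg across those genes. Standard errors are the fold change over the root of the F statistic. Alternatives used DESeq2 1.42.0 and limma-voom (limma 3.58.1), among others, and the fits were tested on simulated data. GENCODE M21 gave lengths and positions, matching 96.2% of the 55011 symbols, and promoters came from RefSeq on GRCm38.p6. Values in every library are given for members called with all 6 libraries (none) and the top pair per cluster by level per kilobase. Members and lists were chosen with earlier results of these data known. The fit that omits both PBS replicate 3 and irisin replicate 1 was added after seeing the data. Values of a few genes and a shared sequence are not reported here, though counts over all members include them.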

Additional observations from a re-analysis of the deposited data

How the results depend on the processing

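The count of Hox genes called higher with irisin was 0 under all 17 alternatives, and that of genes called lower was 0 under 16. The exception was the fit without PBS replicate 3, with 1 (Hoxc6), so leaving out 1 library each gave 0 to 1. With the replicate number as a replicate block, both counts were 0 as well. Same-numbered libraries deviated together only weakly or not at all (correlations of -0.238, 0.164 and -0.177). With 3 libraries per group, such values cannot show whether the numbers pair the samples. The sign of the log2 fold change held under all alternatives for 7 of the 17 tested genes (among them Hoxa7, Hoxa9, Hoxb6, Hoxc6, Hoxc8 and Hoxd8) and turned under at least 1 for 10, none of which was called in either direction. Genes at 1 CPM or more in PBS numbered 18, 17 to 18 without 1 PBS library, 18 with total counts and 23 at 0.5 CPM. The level per kilobase moved by more than the spread between replicates in 13 of 234 cases, all from another choice of length; for Hoxa3 it was 0.874 with all exons and 2.03 with the longest transcript. Depth limits the result, since 1 CPM stood on 5.17 to 6.36 counts in irisin and 5.43 to 6.89 in PBS.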
